A study of Danio rerio with 2 samples.

Results

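A set of 60 zebrafish genes whose proteins build ribosomes in the nucleolus was followed through spermatogenesis. The genes were given as a list of symbols and were looked up without regard to case among the 32520 Ensembl identifiers of the count tables, where 58 of the 60 matched exactly 1 identifier, while pes and brix1 matched none under these symbols. The 58 genes comprised 4 subunits of RNA polymerase I, 3 proteins of the box C/D and 4 of the H/ACA small nucleolar ribonucleoprotein particles (snoRNPs), 23 components of the small subunit processome, 3 late factors of the small subunit, 18 factors of the large subunit and 3 abundant nucleolar proteins. Single-cell RNA sequencing with the 10x Genomics 3′ chemistry, which counts each captured transcript once by its unique molecular identifier (UMI), had been done on dissociated testes of untreated adult males aged 6 months, in 2 libraries called replicate 1 and replicate 2. The paper's methods give the strain as AB/Tübingen, whereas the sample labels call the fish wild type in one place and transgenic in another, and whether a library holds cells of 1 or more fish is not in the labels. The study calls the libraries biological replicates and gives as many adult males as libraries. Cells were grouped by germ cell stage into undifferentiated type A spermatogonia (SPG-Aun), differentiated type A spermatogonia (SPG-Ad), type B spermatogonia (SPG-B), primary and secondary spermatocytes (SPC-I, SPC-II), and spermatids of round (SPT-r) or elongated shape (SPT-e).

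Ribosome assembly starts in the nucleolus, where RNA polymerase I transcribes the precursor of the large ribosomal RNAs. Box C/D particles guide ribose methylation of this precursor and H/ACA particles guide its pseudouridylation. The small subunit processome folds and cuts the part that becomes the small subunit, and a separate series of helicases, GTPases, methyltransferases and scaffold proteins builds the large subunit. Growing and dividing cells such as spermatogonia need many new ribosomes, while spermatids no longer divide and condense their nuclei.

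The 14 sums of UMIs, 1 for each stage and replicate, held 693732 to 13009004 UMIs from 135 to 1009 cells. Stage labels of replicate 1 were the study's own for 1999 cells, and the 3968 staged cells of replicate 2 took the label of most of their nearest labelled cells. These labels come from clusters of the same counts, so every p-value here measures differences between clusters against the spread between 2 libraries. With labels hidden and predicted anew, 89.3% of the labelled cells got their own stage back. This ran from 64.6% in SPG-B, 44 of whose 178 cells were read as SPG-Aun, to 98.6% in SPT-e. All labelled cells were of replicate 1, so this check could not measure the transfer to replicate 2. The stages of replicate 2 were set by likeness to replicate 1, in genes other than those reported. The replicates were thus not staged independently, and their agreement is to be read with this limit. In replicate 2, at least 12 of 15 neighbours voted for the label in 30 of 208 SPG-B and 106 of 361 SPG-Ad cells. The same held for 280 of 1009 SPG-Aun cells, but for 729 of 861 in SPC-I and 206 of 267 in SPC-II. In spermatids it held for 364 of 410 (SPT-r) and 823 of 852 (SPT-e). The spermatogonial genes ddx4 and piwil1 fell from 0.410% of all UMIs in SPG-Aun to 0.0297% in SPT-r, sycp3 and dmc1 were highest in SPC-I, and edrf1 and tssk6 were highest in SPT-e. Pcna, the third spermatocyte marker and a replication gene, went against SPC-I, with 1326 and 1335 CPM (the scale explained below) in SPG-Ad against 324 and 187 in SPC-I. The genes eno3, e2f5 and ripply2, fixed as markers of SPG-Aun, went against that label, with 0.0328% of UMIs in SPG-Aun, 0.118% in SPG-B and 0.114% in SPC-I. The type A spermatogonia also fell mostly into separate clusters by library, 1 with 853 cells of replicate 1 and 346 of replicate 2, and 1 with 248 and 1191.

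Nearly all of the genes were highest in type A spermatogonia. Of the 56 genes with enough UMIs to be tested, 40 had their highest mean in SPG-Aun, 14 in SPG-Ad, 1 in SPC-II (nol9) and 1 in SPT-e (imp4), and 38 were lowest in SPT-r. The 54 genes with a maximum in type A cells had it there in both replicates. The other matched genes, utp18 with 17 UMIs and nop14 with 93, did not pass the filter on low counts, and neither had a UMI in SPT-r or SPT-e. Over the 7 stages, the edgeR F test called a change (adjusted p under 0.05) for 55 of the 56 tested genes, all but nol9 (adjusted p = 0.586), against 88.7% of the 13918 genes tested.

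Together the 58 genes took 0.721% ± 0.081 (SD, n = 2) of all UMIs in SPG-Aun and 0.685% ± 0.0086 in SPG-Ad. The share was 0.203% ± 0.0030 in SPG-B. In spermatocytes it was 0.138% (SPC-I) and 0.128% ± 0.011 (SPC-II), and spermatids had 0.113% ± 0.0095 (SPT-r) and 0.164% ± 0.033 (SPT-e). The step between SPG-Ad and SPG-B was thus far wider than the spread between replicates. The later shares lay closer together, but imp4 made up a large part of them in spermatids. Without imp4 the other 57 genes took 0.714% in SPG-Aun and 0.199% in SPG-B, 0.130% and 0.109% in primary and secondary spermatocytes, and 0.0580% and 0.0972% in round and elongated spermatids, so that their share went down further at each stage to SPT-r. In UMIs per cell, the median cell carried 81 UMIs of these genes in replicate 1 and 72 in replicate 2 in SPG-Aun, 16 and 12 in SPG-B, 8 in both replicates in SPC-I and 2 in both in SPT-e. In SPT-e, 22.3% of the cells of replicate 1 and 21.9% of replicate 2 had no UMI of any of them.

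**Figure D1:**
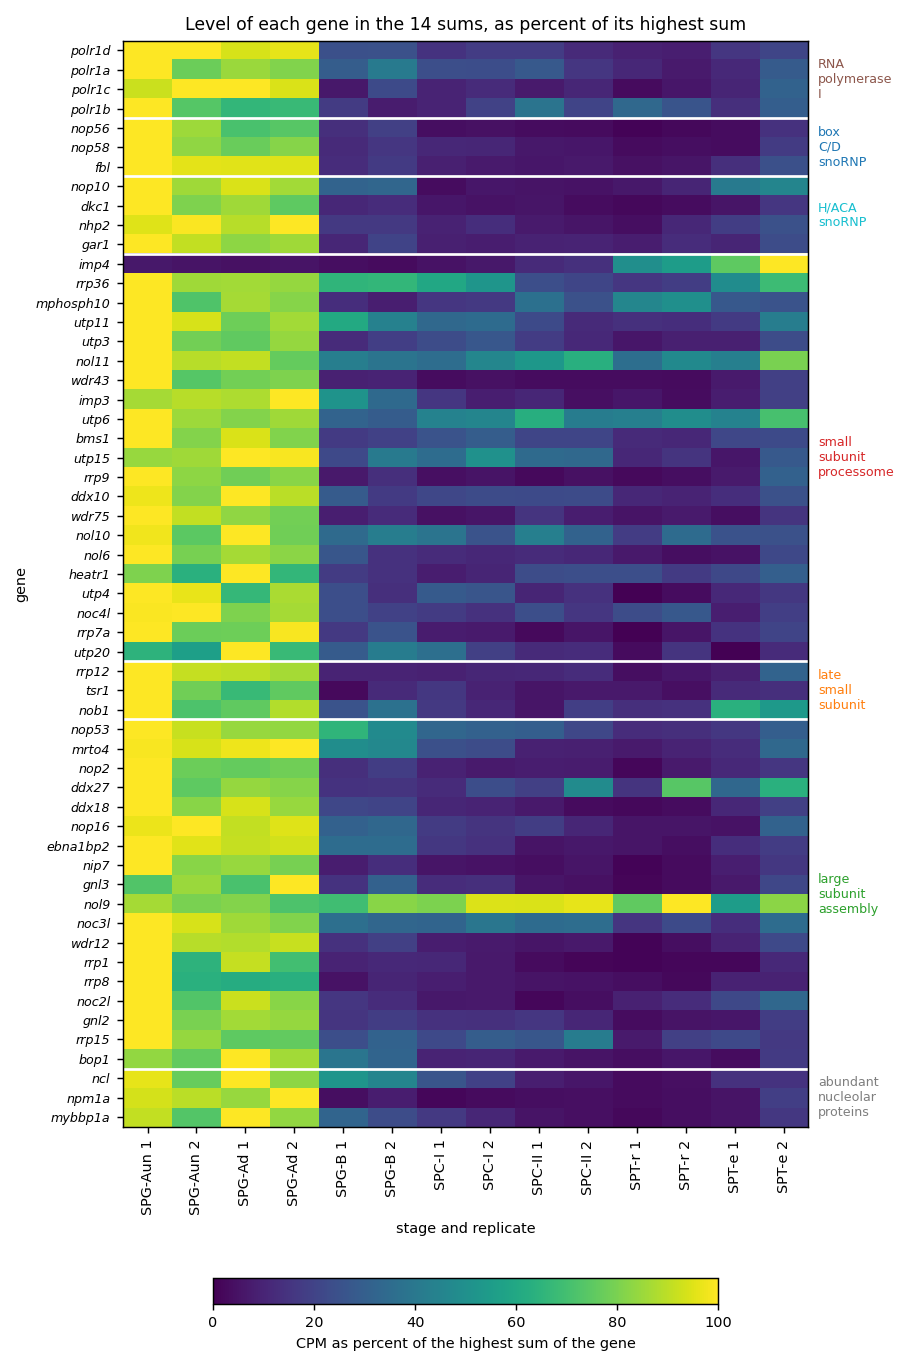
Each row is 1 of the 56 tested genes, each column 1 of the 14 sums (stage and replicate), and the colour is the gene's CPM as percent of its highest sum. In 54 rows the brightest column lies in SPG-Aun or SPG-Ad, while imp4 is brightest in SPT-e and nol9 is bright throughout.

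Levels of single genes are given below as CPM, that is UMI counts scaled to a common total with the TMM factors of edgeR, with replicate 1 before replicate 2. CPM is thus relative to the UMIs of a stage after TMM scaling. In SPT-e this scaling gives higher values than plain totals of UMIs would, as 10 UMIs of nop56 among 693732 in replicate 1 stand as 19.6 CPM. Levels of SPT-e as percent or multiple of SPG-Aun would therefore be lower on plain totals. Cells of SPT-e held a mean of 1628 and 1738 UMIs, against 11828 and 12893 in SPG-Aun. A level kept in CPM in SPT-e is therefore not an amount kept per cell. A gene was called higher or lower at an adjusted p under 0.05 (edgeR quasi-likelihood test, Benjamini-Hochberg over 13918 genes) and a log2 fold change beyond 0.25. Between SPG-Aun and SPG-Ad no gene of the set was called in either direction by edgeR or by DESeq2, none had an unadjusted p under 0.05, and the log2 fold changes ran from -0.37 to 0.48 with a median of -0.08. Among all genes 0.812% were called higher in SPG-Ad and 0.137% lower. These 2 labels were not sharply separate. With labels hidden, 61 of 292 SPG-Ad cells were read as SPG-Aun, and 30 of 308 SPG-Aun cells as SPG-Ad. The lack of calls therefore does not show that the levels were equal.

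From SPG-Ad to SPG-B, 50 of the 56 genes fell and none rose (0 with an unadjusted p under 0.05, and 0 by DESeq2), whereas 11.5% of all genes were called lower and 10.3% higher. The median log2 fold change was -2.06 against -0.03 over all genes, and 55 genes were lower in both replicates. In mean CPM the median gene kept 23.9% of its SPG-Ad level. The largest fall was that of npm1a, the nucleolar chaperone nucleophosmin (log2 fold change -3.95 ± 0.40 (SE, n = 2 sums per stage), edgeR adjusted p = 1.80e-05). The 6 genes without a call were imp4, utp11, utp20, rrp36, nop53 and nol9. Comparing type A spermatogonia directly with SPC-I, which leaves out SPG-B and its less certain labels, gave 54 genes lower in SPC-I and none higher (0 with an unadjusted p under 0.05, and 0 by DESeq2), beside 30.4% and 32.3% of all genes, with imp4 and nol9 as the exceptions and a median log2 fold change of -2.65. Against the mean of the other 5 stages, 54 genes were higher in type A spermatogonia and 1, imp4, was lower, while 40.5% and 33.9% of all genes were called in these directions.

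From SPG-B to SPC-I, 22 genes fell and 1 rose, beside 15.9% and 17.2% of all genes, and the median log2 fold change was -0.59. All 3 abundant nucleolar proteins, 10 of 18 large subunit factors, 3 of 4 H/ACA proteins and 2 of 3 box C/D proteins were among those that fell, as were 3 of 21 tested processome genes, and the difference between these groups was not tested. Nop10, a small protein of the H/ACA particle, fell most (log2 fold change -2.77 ± 0.25 (SE, n = 2 sums per stage), edgeR adjusted p = 1.04e-06), and imp4 was the gene that rose (log2 fold change 0.78 ± 0.22 (SE, n = 2 sums per stage), edgeR adjusted p = 0.0133). With a replicate block in the fit 2 genes were called higher. With only those cells of replicate 2 whose label had at least 12 of 15 votes 10 were called lower. For these fits the shares of all genes called are not given.

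Between SPC-I and SPC-II, 10 genes fell (17.9% of the set) and 3 rose (5.36%), against 15.4% and 17.1% of all genes, and the median log2 fold change was -0.24 against -0.0061 over all genes. In the main fit the share of genes lower was thus near that of all genes. The number of genes lower depended on which cells were kept, as given at the end of the paragraph. The 3 risers were all processome genes, imp4, mphosph10 and heatr1. Heatr1, a large scaffold protein of the processome, rose most (log2 fold change 1.30 ± 0.37 (SE, n = 2 sums per stage), edgeR adjusted p = 0.0144), and rrp1, a large subunit factor, fell most (log2 fold change -2.12 ± 0.58 (SE, n = 2 sums per stage), edgeR adjusted p = 0.0110). Both rested on few UMIs, heatr1 on 10 and 25 in SPC-I and 12 and 23 in SPC-II. Rrp1 had 44 and 50 UMIs in SPC-I and 5 and 4 in SPC-II. Without the doublets that Scrublet called, 23 genes were lower, and without the cells over the 95th percentile of UMIs of their stage 20 were lower. The median log2 fold change of all genes was -0.065 and -0.057 in these settings. How many of all genes were called lower there is not given, so these numbers cannot be set beside it. Scaled to the number of cells in place of UMIs, the median of the set turned to 0.15 (all genes 0.39).

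From SPC-II to SPT-r, 12 genes fell and 3 rose, against 13.1% and 18.7% of all genes, with a median log2 fold change of -0.51. Utp4, a processome protein, fell most (log2 fold change -2.48 ± 0.67 (SE, n = 2 sums per stage), edgeR adjusted p = 0.0111), on 0 UMIs in replicate 1 and 4 in replicate 2 in SPT-r. Imp4 (log2 fold change 2.02 ± 0.20 (SE, n = 2 sums per stage), edgeR adjusted p = 2.58e-06), noc2l and mphosph10 rose. The number of genes lower was 7 without called doublets, 20 on the scale of cells and 31 with plain totals of UMIs in place of TMM. The median of all genes was -0.0034, -0.39 and -0.57 in these settings, against -0.083 in the main fit. The shares of all genes called there are not given, so a change particular to the set cannot be read from these numbers.

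**Figure D2:**
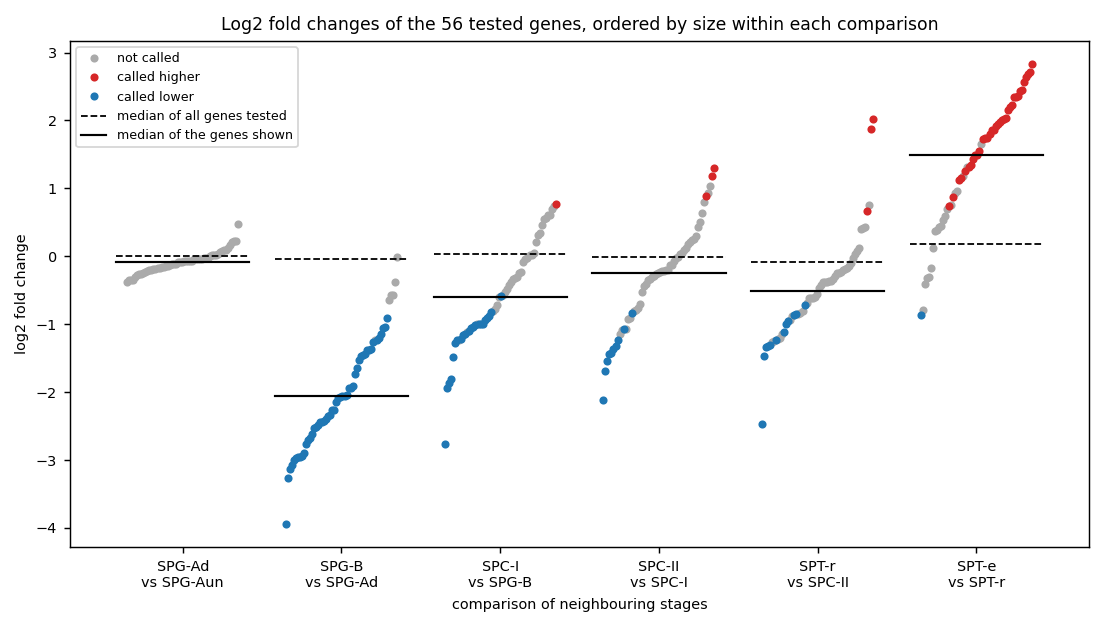
Each point is the log2 fold change of 1 of the 56 tested genes in 1 of 6 comparisons of neighbouring stages, ordered by size within the comparison, with called genes in colour. The points lie around 0 between SPG-Aun and SPG-Ad and nearly all below 0 between SPG-Ad and SPG-B (median -2.06). They lie mostly above 0 between SPT-r and SPT-e (median 1.49 with TMM, but -1.39 on the scale of cells).

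From SPT-r to SPT-e the levels in CPM went up again. With TMM scaling 36 genes rose, 1 fell and the median log2 fold change was 1.49. Over all genes 17.4% were higher and 9.66% lower, with a median of 0.17. On plain totals of UMIs fewer genes of the set rose, as given below, and the median of all genes was -0.27. On the scale of cells none rose, 38 fell and the median was -1.39 (all genes -2.66). Elongated spermatids held few transcripts, with a mean of 1628 and 1738 UMIs per cell against 8492 and 9646 in SPT-r. The UMIs of the set fell from 8.996 and 11.5 per cell to 2.29 and 3.27. In SPT-e of replicate 1, 36 of the 56 genes rested on fewer than 10 UMIs. The largest rise was that of gnl3, a GTP-binding protein known as nucleostemin (log2 fold change 2.84 ± 0.58 (SE, n = 2 sums per stage), edgeR adjusted p = 0.00228), from 3 and 13 UMIs to 5 and 27.

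The spermatogonial genes ddx4 and piwil1 went up with the set, from 0.0260% and 0.0333% of UMIs in SPT-r to 0.0463% and 0.0729% in SPT-e. The summed markers of spermatocytes and Leydig cells went up too, while those of Sertoli and immune cells went different ways in the replicates. The 3 spermatocyte markers went from 0.0520% and 0.0471% to 0.0881% and 0.0780%, with pcna going from 24.8 and 34.9 CPM to 102 and 248. The 4 markers of Leydig cells, a somatic cell type of the testis, went from 0.00721% and 0.0104% of UMIs to 0.00879% and 0.0222%, with insl3 going from 68.8 and 116 CPM to 111 and 341. Sertoli cell markers went from 0.000477% and 0.000759% to 0.000288% and 0.00122%. Immune cell markers went from 0.00435% and 0.00240% to 0.00505% and 0.00108%. The ribosomal protein genes went from 3.84% to 5.82%. The part of these cells and genes in the result was not tested. Without called doublets ddx4 and piwil1 took 0.0346% and 0.0374% in SPT-e, the set without imp4 took 0.0736% and 0.0795% in place of 0.0768% and 0.118%, and 20 genes were called higher. Without the cells over the 95th percentile of UMIs 21 were called higher, and the set without imp4 took 0.0753% and 0.0756% in SPT-e against 0.0467% and 0.0618% in SPT-r. Without these cells the replicates of SPT-e thus lay closer together. With plain totals in place of TMM, 22 genes were higher and 2 lower. The median log2 fold change of all genes was then -0.27. It was -0.017 without called doublets and -0.022 without the cells over the 95th percentile. The counts of genes in these settings are given without the shares of all genes called there.

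RNA polymerase I transcribes the ribosomal RNA precursor, and all 4 of its tested subunits fell from SPG-Ad to SPG-B. Their summed share went from 0.0252% of UMIs in SPG-Aun and 0.0241% in SPG-Ad to 0.00679% in SPG-B and 0.00223% in SPT-r. Polr1d, a small subunit shared with RNA polymerase III, was the most abundant, at 137 and 137 CPM for SPG-Aun, 128 and 132 for SPG-Ad, 33.6 and 33.8 for SPG-B, 20.3 and 24.4 for SPC-I, 24.1 and 16.2 for SPC-II, 12.7 and 11.2 for SPT-r and 21.5 and 28.7 for SPT-e. Its replicates agreed closely, and the 2 type A stages did not overlap with any later stage. Polr1c, the other subunit shared with that enzyme, stood at 35.3 and 38.3 CPM for SPG-Aun, 38.3 and 36.2 for SPG-Ad, 2.54 and 8.60 for SPG-B, 3.82 and 4.72 for SPC-I, 2.83 and 4.15 for SPC-II, 1.10 and 2.37 for SPT-r and 3.91 and 12.1 for SPT-e. Polr1b, the second largest subunit, was the scarcest at 14.7 and 10.8 CPM for SPG-Aun, 9.75 and 9.95 for SPG-Ad, 2.54 and 1.15 for SPG-B, 1.47 and 2.90 for SPC-I, 5.66 and 3.02 for SPC-II, 4.95 and 3.85 for SPT-r and 1.96 and 4.41 for SPT-e, and its later stages overlapped one another. Polr1a, which holds the catalytic centre, kept more of its SPG-Ad level in SPG-B than the others did (42.4%).

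All 3 measured genes of the box C/D particle fell from SPG-Ad to SPG-B, and nop56 and fbl fell again in SPC-I. Its share was 0.105% in SPG-Aun, 0.0175% in SPG-B and 0.00268% in SPT-r. Nop56, a core scaffold protein of the particle, stood at 588 and 502 CPM for SPG-Aun, 419 and 435 for SPG-Ad, 79.9 and 112 for SPG-B, 22.04 and 27.4 for SPC-I, 19.1 and 18.1 for SPC-II, 6.05 and 13.6 for SPT-r and 19.6 and 84.9 for SPT-e. Its mean was lower at each stage up to SPT-r, where 1.80% of its SPG-Aun level was left, and its replicates were far apart in SPT-e. The set without imp4 also differed there, at 0.0768% and 0.118% of UMIs, but had 0.0736% and 0.0795% without called doublets. Fbl, fibrillarin, is the methyltransferase of the particle and stood at 162 and 155 CPM for SPG-Aun, 154 and 154 for SPG-Ad, 20.3 and 27.5 for SPG-B, 14.4 and 11.9 for SPC-I, 9.91 and 10.9 for SPC-II, 7.15 and 8.88 for SPT-r and 21.5 and 39.7 for SPT-e. Both replicates of SPT-e lay above both of SPT-r and below both of SPG-Aun. Nop58, the partner of nop56, kept 11.9% of its SPG-Aun level in SPC-I but 3.72% in SPT-r, and was not called between SPG-B and SPC-I (-0.33 on the log2 scale, edgeR adjusted p = 0.461).

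The H/ACA particle fell too, from 0.0930% of UMIs in SPG-Aun to 0.0214% in SPG-B and 0.00687% in SPC-I. Dkc1, dyskerin, is its pseudouridine synthase and stood at 370.1 and 299 CPM for SPG-Aun, 318 and 278 for SPG-Ad, 40.6 and 47.04 for SPG-B, 21.7 and 17.8 for SPC-I, 21.2 and 12.8 for SPC-II, 8.25 and 12.4 for SPT-r and 21.5 and 58.5 for SPT-e. Nhp2, an RNA-binding core protein, stood at 123 and 129 CPM for SPG-Aun, 115 and 129 for SPG-Ad, 21.6 and 21.2 for SPG-B, 12.3 and 16.9 for SPC-I, 9.20 and 7.17 for SPC-II, 4.95 and 14.5 for SPT-r and 23.5 and 31.99 for SPT-e. Gar1, which binds dyskerin, was the scarcest of the 4 at 94.4 and 85.6 CPM for SPG-Aun, 78.4 and 81.1 for SPG-Ad, 10.1 and 18.9 for SPG-B, 8.23 and 7.47 for SPC-I, 9.20 and 9.43 for SPC-II, 7.70 and 11.8 for SPT-r and 9.78 and 22.1 for SPT-e. All 3 fell in SPG-B, and none of them was called between SPC-I and SPC-II or between SPC-II and SPT-r. Nop10 departed from them, at 389 and 333 CPM for SPG-Aun, 367 and 335 for SPG-Ad, 124 and 128 for SPG-B, 12.9 and 23.02 for SPC-I, 19.8 and 19.6 for SPC-II, 24.8 and 39.96 for SPT-r and 160.3 and 176 for SPT-e. It kept 36.0% of its SPG-Ad level in SPG-B, where the other 3 kept 14.7% to 18.2%, fell to 4.98% of its SPG-Aun level in SPC-I and stood at 46.7% of it in SPT-e, the highest value of the 4 proteins.

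**Figure D3:**
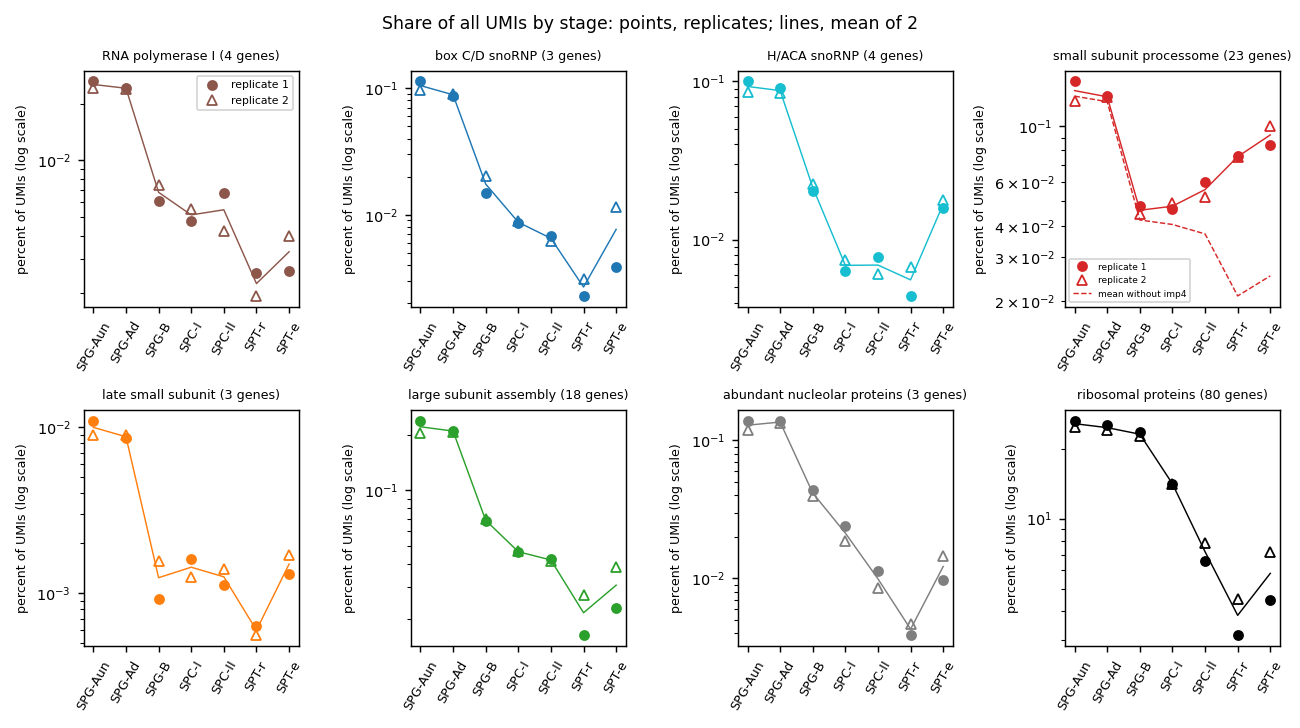
Each panel gives the share of all UMIs (percent, log axis) of 1 group of genes in the 7 stages, with a point for each replicate and a line through the mean of 2; the dashed line leaves out imp4. Every group of the set drops from SPG-Ad to SPG-B, while the ribosomal protein genes stay near 23.1% in SPG-B and drop later.

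The small subunit processome was less uniform than the snoRNPs. Of its 23 matched genes 21 were tested, and 17 of them fell from SPG-Ad to SPG-B. Its summed share was 0.139% in SPG-Aun, 0.0461% in SPG-B, 0.0558% in SPC-II and 0.0923% in SPT-e, but without imp4 the same stages had 0.132%, 0.0422%, 0.0371% and 0.0252%. The upward course of the summed share from SPG-B to SPT-r thus rested on imp4. From SPT-r to SPT-e the share without imp4 went from 0.0208% to 0.0205% in replicate 1 and from 0.0210% to 0.0299% in replicate 2.

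Several processome proteins belong to a module that binds the precursor first and is in yeast and human cells also needed for its transcription. Of these, wdr43 stood at 162 and 119 CPM for SPG-Aun, 127 and 130.3 for SPG-Ad, 14.6 and 16.1 for SPG-B, 5.29 and 7.47 for SPC-I, 5.66 and 5.66 for SPC-II, 5.50 and 4.74 for SPT-r and 11.7 and 30.9 for SPT-e. Wdr75 had 51.9 and 47.1 CPM for SPG-Aun, 43.3 and 40.8 for SPG-Ad, 4.44 and 6.31 for SPG-B, 2.35 and 2.90 for SPC-I, 7.78 and 4.15 for SPC-II, 2.75 and 3.85 for SPT-r and 1.96 and 7.72 for SPT-e. In SPG-B wdr43 was at 11.9% and wdr75 at 12.8% of the SPG-Ad level, and no later sum came near the type A values. Heatr1 reached 29.4 and 23.1 CPM for SPG-Aun, 36.4 and 24.1 for SPG-Ad, 6.34 and 5.16 for SPG-B, 2.94 and 3.81 for SPC-I, 8.49 and 8.67 for SPC-II, 8.80 and 6.22 for SPT-r and 7.82 and 11.03 for SPT-e. Its 2 SPC-I values were below all other stages and its SPC-II values lay close together. Utp4 had 34.2 and 33.04 CPM for SPG-Aun, 22.7 and 29.8 for SPG-Ad, 8.25 and 4.59 for SPG-B, 9.70 and 8.99 for SPC-I, 3.54 and 4.90 for SPC-II, 0 and 1.18 for SPT-r and 3.91 and 5.51 for SPT-e. Nol11 fell less, at 77.3 and 69.1 CPM for SPG-Aun, 70.2 and 58.9 for SPG-Ad, 32.98 and 29.8 for SPG-B, 27.6 and 35.5 for SPC-I, 41.04 and 48.6 for SPC-II, 28.1 and 36.7 for SPT-r and 33.2 and 61.8 for SPT-e, and its SPT-e values overlapped with those of type A cells. In SPT-r it still had 44.2% of its SPG-Aun level, whereas utp15, of the same module, had 15.4%.

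Utp6, of another module of the processome, stood at 57.5 and 49.2 CPM for SPG-Aun, 46.8 and 49.4 for SPG-Ad, 18.4 and 16.6 for SPG-B, 25.6 and 26.2 for SPC-I, 36.1 and 24.1 for SPC-II, 24.8 and 28.1 for SPT-r and 25.4 and 40.8 for SPT-e. In CPM utp6 too kept more than most genes of the set, 62.1% of its SPG-Aun level in SPT-e. In UMIs it had 13 and 37 from 426 and 852 cells in SPT-e. In SPG-Aun it had 215 and 649 from 308 and 1009 cells. A further module holds mphosph10, imp3 and imp4, which bind one another, and their courses differed. Imp3 had 85.9 and 88.5 CPM for SPG-Aun, 87.1 and 99.1 for SPG-Ad, 50.7 and 33.8 for SPG-B, 15.6 and 8.38 for SPC-I, 10.6 and 4.15 for SPC-II, 6.05 and 3.26 for SPT-r and 7.82 and 18.8 for SPT-e. It fell again in SPC-I (-1.87 on the log2 scale), where its replicates lay below both of SPG-B. Mphosph10 stood at 121 and 87.7 CPM for SPG-Aun, 105 and 98.7 for SPG-Ad, 15.9 and 10.3 for SPG-B, 19.1 and 20.3 for SPC-I, 44.6 and 30.2 for SPC-II, 55.6 and 60.1 for SPT-r and 33.2 and 30.9 for SPT-e. Its minimum was in SPG-B, and from there it went up stage by stage to SPT-r in both replicates, where it had 55.4% of its SPG-Aun level, before it fell in SPT-e (log2 fold change -0.86 ± 0.28 (SE, n = 2 sums per stage), edgeR adjusted p = 0.0325), a call that DESeq2 did not make.

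Imp4 went down to SPG-B without a call and then rose at each step to SPT-r, where the median of the set fell. It stood at 72.7 and 62.2 CPM for SPG-Aun, 53.1 and 59.5 for SPG-Ad, 42.5 and 33.8 for SPG-B, 56.1 and 73.8 for SPC-I, 138 and 158 for SPC-II, 569.8 and 635 for SPT-r and 866 and 1149 for SPT-e. Both values of SPT-r and of SPT-e lay far above those of all earlier stages. The mean CPM of SPT-r was 8.93 times and that of SPT-e 14.9 times that of SPG-Aun. These multiples depend on the TMM scaling, and on plain totals SPT-e stood less far above SPT-r. Imp4 had 1036 and 2147 of 1885267 and 3955001 UMIs in SPT-r, and 443 and 1042 of 693732 and 1480390 in SPT-e. In UMIs per cell, imp4 had 0.883 and 0.814 in SPG-Aun, 0.376 and 0.284 in SPG-B, 4.67 and 5.24 in SPT-r, and only 1.04 and 1.22 in SPT-e, so that its maximum per cell was in SPT-r. It made up 443 of the 976 UMIs of the tested genes in SPT-e of replicate 1 and 1042 of 2782 in replicate 2. In the RefSeq annotation of another assembly no protein-coding gene overlaps imp4, while 15 of the 58 genes overlap one. In the build of the counts the gene model was not examined here, and whether all UMIs given to the imp4 identifier come from its own transcripts, spermatid stages included, was not tested.

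The remaining processome genes mostly followed the common course. Rrp9, which binds the snoRNA at the core of the processome, had 81.3 and 67.4 CPM for SPG-Aun, 63.7 and 66.96 for SPG-Ad, 5.71 and 10.9 for SPG-B, 3.23 and 4.27 for SPC-I, 2.12 and 3.77 for SPC-II, 2.20 and 2.96 for SPT-r and 5.87 and 25.4 for SPT-e. Rrp36 had 156 and 134 CPM for SPG-Aun, 135 and 132 for SPG-Ad, 102 and 103 for SPG-B, 93.7 and 81.5 for SPC-I, 37.5 and 32.8 for SPC-II, 24.8 and 28.4 for SPT-r and 76.3 and 107 for SPT-e. It was not called from SPG-Ad to SPG-B (-0.37 on the log2 scale), where 77.1% was left, and fell between SPC-I and SPC-II (-1.33). The tested snoRNP genes were all called lower in SPG-B, and the difference in timing was not tested. Nol6 stood at 40.4 and 32.1 CPM for SPG-Aun, 34.9 and 33.3 for SPG-Ad, 10.8 and 5.74 for SPG-B, 4.995 and 4.57 for SPC-I, 4.95 and 4.53 for SPC-II, 2.75 and 1.48 for SPT-r and 1.96 and 8.82 for SPT-e. Rrp7a, which acts with nol6, had 27.01 and 20.9 CPM for SPG-Aun, 21.01 and 26.8 for SPG-Ad, 4.44 and 6.88 for SPG-B, 2.06 and 1.98 for SPC-I, 0.708 and 1.51 for SPC-II, 0 and 1.48 for SPT-r and 3.91 and 5.51 for SPT-e. Both were at a few CPM from SPC-I onwards. Noc4l had 23.5 and 23.6 CPM for SPG-Aun, 19.1 and 20.5 for SPG-Ad, 5.71 and 4.59 for SPG-B, 4.11 and 3.35 for SPC-I, 5.66 and 3.77 for SPC-II, 5.50 and 6.51 for SPT-r and 1.96 and 4.41 for SPT-e. Utp20, the scarcest tested gene of the group, stood at 11.5 and 10.004 CPM for SPG-Aun, 17.8 and 12.1 for SPG-Ad, 5.07 and 7.46 for SPG-B, 6.46 and 3.35 for SPC-I, 2.12 and 2.26 for SPC-II, 0.550 and 2.66 for SPT-r and 0 and 2.21 for SPT-e, and it was one of the processome genes with a higher mean in SPG-Ad than in SPG-Aun. Utp3, utp11, bms1, nol10 and ddx10 had means of 26.9 to 118 CPM in SPG-Aun and 4.69 to 13.96 in SPT-r.

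The 3 late factors of the small subunit fell in SPG-B together. Rrp12, which in yeast takes part in the export of both subunits, had 45.2 and 41.3 CPM for SPG-Aun, 40.7 and 39.03 for SPG-Ad, 4.44 and 4.59 for SPG-B, 4.11 and 4.88 for SPC-I, 4.95 and 5.66 for SPC-II, 1.65 and 2.66 for SPT-r and 3.91 and 14.3 for SPT-e. Nob1, the nuclease that trims the end of the small subunit RNA, stood at 12.3 and 8.87 CPM for SPG-Aun, 9.31 and 10.9 for SPG-Ad, 3.17 and 4.59 for SPG-B, 2.06 and 1.37 for SPC-I, 0.708 and 2.26 for SPC-II, 1.65 and 1.78 for SPT-r and 7.82 and 6.62 for SPT-e. With 4 and 6 UMIs in SPT-e the value of nob1 there, 68.2% of SPG-Aun, is uncertain, although it was called higher than in SPT-r. Tsr1, a GTPase-like factor, was left at 10.0% of its SPG-Ad level in SPG-B.

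Among the 18 large subunit factors 16 fell from SPG-Ad to SPG-B and 10 fell from SPG-B to SPC-I. Nop53, which in yeast helps to process the end of a precursor RNA, was the most abundant, at 244 and 224 CPM for SPG-Aun, 206 and 205 for SPG-Ad, 159 and 116 for SPG-B, 80.5 and 75.8 for SPC-I, 72.9 and 52.04 for SPC-II, 30.8 and 32.9 for SPT-r and 39.1 and 72.8 for SPT-e. Its decline was gradual, and SPG-B of replicate 1 was closer to SPG-Ad than to SPC-I. Ebna1bp2 had 166 and 159 CPM for SPG-Aun, 151 and 155 for SPG-Ad, 58.99 and 59.1 for SPG-B, 26.7 and 23.6 for SPC-I, 8.49 and 10.6 for SPC-II, 9.35 and 5.92 for SPT-r and 21.5 and 29.8 for SPT-e. It too declined in steps, to 38.5% of SPG-Ad in SPG-B, and further in SPC-I and SPC-II. Nop16 stood at 157 and 162 CPM for SPG-Aun, 148 and 154 for SPG-Ad, 50.1 and 54.5 for SPG-B, 28.5 and 24.4 for SPC-I, 29.7 and 17.3 for SPC-II, 9.35 and 8.88 for SPT-r and 7.82 and 50.7 for SPT-e. Mrto4 was called lower in SPG-B, SPC-I and SPC-II in turn.

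Wdr12 and bop1 form a complex with the product of pes. Wdr12 stood at 99.2 and 88.4 CPM for SPG-Aun, 87.9 and 91.1 for SPG-Ad, 13.95 and 18.9 for SPG-B, 7.93 and 7.16 for SPC-I, 5.66 and 6.79 for SPC-II, 1.10 and 3.55 for SPT-r and 9.78 and 22.1 for SPT-e. Bop1 had 48.9 and 44.5 CPM for SPG-Aun, 58.5 and 50.3 for SPG-Ad, 22.8 and 18.9 for SPG-B, 5.88 and 5.94 for SPC-I, 4.25 and 3.02 for SPC-II, 2.20 and 3.55 for SPT-r and 1.96 and 9.93 for SPT-e. Bop1 kept more in SPG-B (38.4% of SPG-Ad) than wdr12 did (18.4%), a difference that was not tested, and in SPC-I they had 12.7% and 8.04% of their SPG-Aun levels. The methyltransferases nop2 and rrp8 modify the large subunit RNA. Nop2 had 241 and 187 CPM for SPG-Aun, 184 and 189 for SPG-Ad, 32.98 and 44.2 for SPG-B, 23.5 and 17.5 for SPC-I, 19.1 and 18.1 for SPC-II, 4.40 and 17.5 for SPT-r and 27.4 and 38.6 for SPT-e. Rrp8 had 104 and 65.9 CPM for SPG-Aun, 64.3 and 65.6 for SPG-Ad, 5.07 and 10.9 for SPG-B, 8.81 and 7.16 for SPC-I, 5.66 and 5.28 for SPC-II, 3.85 and 2.37 for SPT-r and 9.78 and 9.93 for SPT-e. Replicate 1 of SPG-Aun was above all other sums in both of them.

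Noc2l, a partner of noc3l in transport of the precursor, had 72.5 and 52.7 CPM for SPG-Aun, 66.7 and 59.5 for SPG-Ad, 11.4 and 9.18 for SPG-B, 4.70 and 5.03 for SPC-I, 1.42 and 2.64 for SPC-II, 6.60 and 9.18 for SPT-r and 15.6 and 24.3 for SPT-e. It was lowest in SPC-II and rose in SPT-r (log2 fold change 1.87 ± 0.45 (SE, n = 2 sums per stage), edgeR adjusted p = 0.00482), unlike noc3l, which fell there (-0.86). The rise of noc2l was from 2 and 7 UMIs to 12 and 31. Nip7 stood at 164 and 135 CPM for SPG-Aun, 138 and 130.1 for SPG-Ad, 13.3 and 21.2 for SPG-B, 9.11 and 8.23 for SPC-I, 6.37 and 9.43 for SPC-II, 1.65 and 4.74 for SPT-r and 13.7 and 26.5 for SPT-e. Ddx18, an RNA helicase, had 196 and 162 CPM for SPG-Aun, 184 and 166 for SPG-Ad, 41.9 and 40.2 for SPG-B, 21.4 and 19.8 for SPC-I, 13.4 and 5.66 for SPC-II, 3.85 and 6.81 for SPT-r and 21.5 and 37.5 for SPT-e. In SPC-I nip7 had 5.81% and ddx18 11.5% of the SPG-Aun level. Rrp1 had 115 and 73.96 CPM for SPG-Aun, 105 and 80.2 for SPG-Ad, 11.4 and 13.2 for SPG-B, 12.9 and 7.62 for SPC-I, 3.54 and 1.51 for SPC-II, 1.10 and 2.07 for SPT-r and 1.96 and 13.2 for SPT-e, and gnl3 had 102 and 118 CPM for SPG-Aun, 99.4 and 139 for SPG-Ad, 20.3 and 43.02 for SPG-B, 17.6 and 18.7 for SPC-I, 7.78 and 6.03 for SPC-II, 1.65 and 3.85 for SPT-r and 9.78 and 29.8 for SPT-e. In both, SPT-e of replicate 2 was the highest sum after SPC-I, on 12 and 27 UMIs. The set without imp4 had 2.04 UMIs per cell in that sum, and 1.18 without called doublets. Whether the same cells carried these 2 genes was not tested.

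Ddx27, another helicase, differed between the libraries, at 153 and 115 CPM for SPG-Aun, 129 and 125 for SPG-Ad, 22.2 and 22.9 for SPG-B, 18.8 and 35.97 for SPC-I, 29.01 and 73.9 for SPC-II, 23.1 and 113 for SPT-r and 50.8 and 97.1 for SPT-e. The replicates lay close in SPG-Ad and SPG-B and parted from SPC-I onwards, where replicate 2 was higher in each stage. In the same RefSeq annotation ddx27 overlaps another protein-coding gene, and it was called in SPG-B vs SPG-Ad only among the neighbouring comparisons. Nol9, a kinase that prepares RNA ends during large subunit processing, hardly moved in CPM, at 42.8 and 39.6 CPM for SPG-Aun, 40.3 and 35.6 for SPG-Ad, 34.2 and 40.7 for SPG-B, 39.7 and 46.8 for SPC-I, 46.7 and 47.5 for SPC-II, 37.4 and 49.4 for SPT-r and 27.4 and 40.8 for SPT-e. It overlaps zbtb48 there, and its log2 fold change between type A spermatogonia and the other stages was -0.06 ± 0.12 (SE), of a sign that differed between replicates and between scalings.

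**Figure D4:**
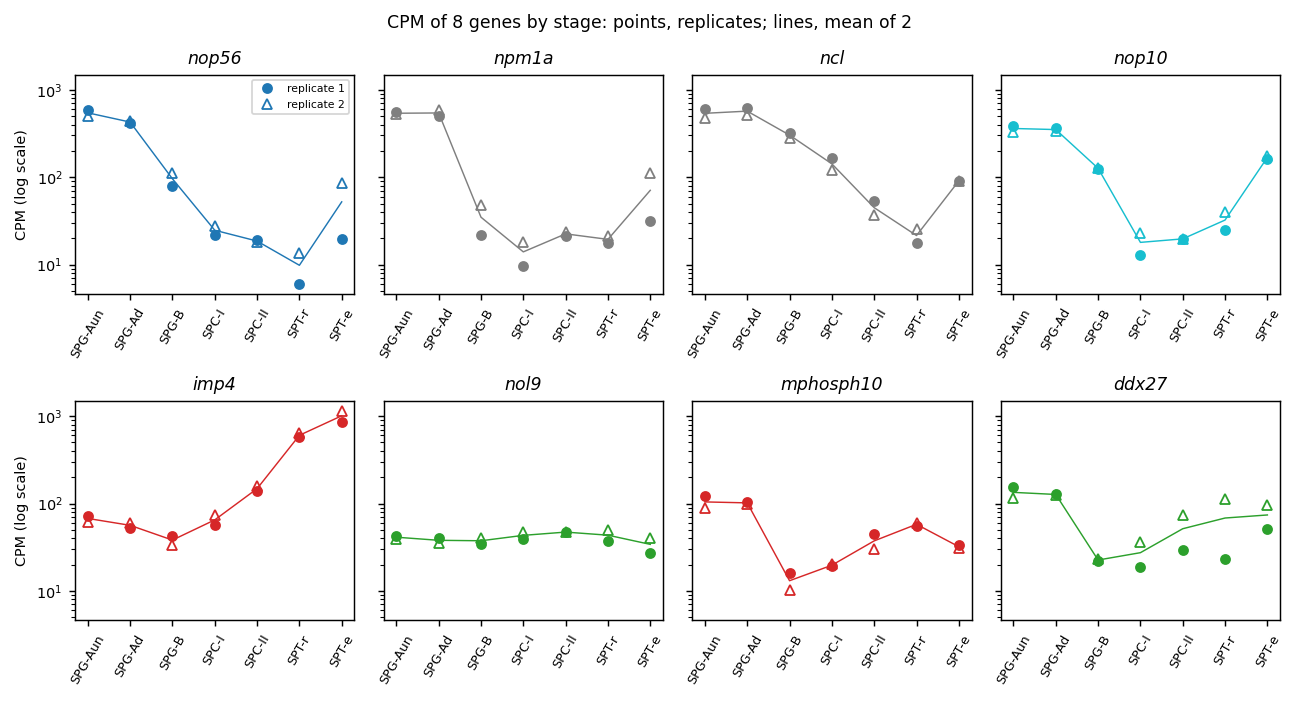
CPM (log axis) of 8 genes in the 7 stages, with a point for each replicate and a line through the mean of 2. Nop56, npm1a, ncl and nop10 fall from SPG-Ad to SPG-B and are lower again in SPC-I. Imp4 climbs to 866 and 1149 CPM in SPT-e, and nol9 stays between 27.4 and 49.4 CPM. Mphosph10 dips in SPG-B, and ddx27 differs between replicates from SPC-I onwards.

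The abundant nucleolar proteins all fell in SPG-B and again in SPC-I. The size of the fall in SPG-B differed between them, and this difference was not tested. Npm1a had 550.4 and 528 CPM for SPG-Aun, 497 and 589 for SPG-Ad, 21.6 and 48.2 for SPG-B, 9.70 and 18.3 for SPC-I, 21.2 and 23.8 for SPC-II, 17.6 and 21.3 for SPT-r and 31.3 and 110.3 for SPT-e. It was at 6.42% of its SPG-Ad level in SPG-B, the lowest of the 56 genes, and was not called between SPC-II and SPT-r. Ncl, nucleolin, stood at 599 and 477 CPM for SPG-Aun, 622 and 517 for SPG-Ad, 324 and 282 for SPG-B, 165 and 119.8 for SPC-I, 53.1 and 36.6 for SPC-II, 17.6 and 25.5 for SPT-r and 89.9 and 91.5 for SPT-e. It kept 53.2% in SPG-B and declined at each step to SPT-r. Mybbp1a had 203 and 164 CPM for SPG-Aun, 224 and 187 for SPG-Ad, 72.3 and 51.6 for SPG-B, 37.3 and 23.6 for SPC-I, 12.03 and 9.05 for SPC-II, 4.95 and 8.29 for SPT-r and 11.7 and 36.4 for SPT-e, and lay between them in SPG-B at 30.2%.

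A longer list of 90 other ribosome assembly and polymerase I factors, of which 88 were tested, shared the drop from SPG-Ad to SPG-B. Its summed share took another course later, while its median gene moved in the same direction as that of the set at each later step. Its share of UMIs was 0.656% and 0.632% for the type A stages, 0.326% for SPG-B and 0.308% for SPC-I, and was then higher at each stage, at 0.350%, 0.404% and 0.4996% in SPC-II, SPT-r and SPT-e. From SPG-Ad to SPG-B 63 fell (71.6%) and 2 rose (2.27%), against 11.5% and 10.3% of all genes, with a median log2 fold change of -1.46. From SPG-B to SPC-I 27 fell (30.7%) and 10 rose (11.4%), against 15.9% and 17.2% of all genes. From SPC-I to SPC-II 13 fell (14.8%) and 9 rose (10.2%), against 15.4% and 17.1%. From SPC-II to SPT-r 13 went each way (14.8%), against 13.1% lower and 18.7% higher. The shares lower in SPC-II and in SPT-r were thus near those of all genes. From SPT-r to SPT-e 31 rose (35.2%) and 3 fell (3.41%), against 17.4% and 9.66%. The median log2 fold changes of the steps from SPG-B onwards were -0.47, -0.23, -0.19 and 0.91. Which genes carried the summed share of the list was not tested. None was called between SPG-Aun and SPG-Ad, beside 0.812% of all genes higher and 0.137% lower. The genes of the ribosomal proteins themselves, 80 by symbol, took 25.6% of all UMIs in SPG-Aun and 24.6% in SPG-Ad. Their share was still 23.1% in SPG-B and went down to 14.1% (SPC-I) and 3.84% (SPT-r) later. From SPG-Ad to SPG-B the share of the ribosomal protein genes therefore changed little while that of the 58 genes went from 0.685% to 0.203%, and this difference in timing was not tested.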

How the data were processed

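The authors mapped reads to danRer11 with Cell Ranger, version 7.2.0 per the submitters' notes and 6.1.2 per the file headers, and deposited raw counts of UMIs per gene and barcode. Of the 32520 identifiers, 29201 were given a symbol by a table of gene names. Cells with 200 to 7000 genes and at most 5% mitochondrial UMIs were kept (3018 with 25745204 UMIs, and 5104 with 38950334). The libraries shared 8 barcodes, 3 among staged cells. Stages of replicate 1 are the study's annotation, held here for 1999 cells, whose UMI totals matched the counts in 1998 cells over genes seen in at least 3 cells. Replicate 2 was labelled by 15 neighbours in 30 principal components of 2000 variable genes (scanpy 1.11.5), without the genes reported and the markers. The 860 cells of replicate 2 in Leiden clusters nearly lacking replicate 1 got no stage. Neither did 907 cells of replicate 1 beyond the range that the held annotation covers. A further 112 cells of replicate 1 within that range had no label, and 276 cells of replicate 2 were voted to be like them. These were left out too. No doublets were removed at first, as no caller is stated for these libraries. Counts were summed per stage and replicate and fitted with edgeR 4.0.16 (filterByExpr, TMM, quasi-likelihood, 14 sums, no block), which was tested on simulated data. A log2 fold change of 1 replicate uses a prior count of 2. The SE of a log2 fold change was derived from the F statistic of this fit. Its spread is estimated over all 14 sums and moderated across genes, not taken from the 2 sums of a stage alone. Sums of the same replicate come from the same library. Their deviations from the stage means correlated at 0.111 to 0.413 over the stage pairs (median 0.221), so the replicates pair to some degree. The main fit leaves this pairing out, and a fit with a replicate block is among the alternatives. Each stage has n = 2 sums, and the study calls the libraries biological replicates and gives as many males as libraries, so p-values measure the spread between these libraries. In counts summed over cells, fewer cells of a subtype and less RNA per cell cannot be told apart.

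Values in each sum are given for the highest and lowest gene of each group, for genes not highest in type A cells, for genes higher in spermatids than in SPC-I and for the largest called changes. Others are given by ranges. The members and lists were chosen with earlier results of these data known. Alternatives were RLE and plain totals, number of cells as the scale, no filter on low counts, a replicate block, predicted or strict labels, a mitochondrial limit of 10%, called doublets left out, a fold limit of 1, DESeq2 1.42.0 and leaving out each replicate. One, leaving out cells over the 95th percentile of UMIs, was added after the data were seen. RefSeq gene neighbours are from an assembly other than the one of the counts, so no coordinates or sequences are given.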

Additional observations from a re-analysis of the deposited data

Results flagged for a closer look

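A pair of cell groups, nearly all from replicate 2, got no stage and are in no comparison, and both carried signal of the 58 genes. The smaller had 158 cells from replicate 2 beside 2 from replicate 1, with 0.415% of its UMIs on these genes and 1924 CPM of isg15, a gene induced by interferon. The larger had 793 and 3 cells, with 0.50% of UMIs on these genes and 2839 CPM of insl3, a Leydig cell gene. Both shares lie between those of SPG-B and SPG-Ad. Ddx4 and piwil1 together had 3007 CPM in the smaller and 3439 in the larger, beside 3804 and 4587 in the type A clusters. A separate cluster had 149786 CPM of insl3 and 0.113% of UMIs on the 58 genes. CPM of clusters are on plain totals of UMIs. Which cells the groups without a stage hold was not tested.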

How the results depend on the processing

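The medians of all comparisons other than those named here kept their direction under every alternative run. With plain totals in place of TMM, 4 genes were called higher in SPC-I vs SPG-B, 5 higher in SPC-II vs SPC-I, 31 lower in SPT-r vs SPC-II, and 22 higher and 2 lower in SPT-e vs SPT-r, where this scaling moved the median of all genes by -0.49 and -0.44 in the last pair of comparisons, and nol9 turned to 0.0085. On the scale of cells the median of all genes moved by -2.84 in SPT-e vs SPT-r. There 0 genes were higher, 38 were lower, the median was -1.39 and gnl3 was at -0.043, while the median turned to 0.19 in SPG-Ad vs SPG-Aun and to 0.15 in SPC-II vs SPC-I (7 higher, 6 lower), 20 were lower in SPT-r vs SPC-II and nol9 was at 1.21. In SPC-I vs SPG-B, 2 genes were higher without the filter on low counts, with the replicate block, with predicted labels, with labels of at least 12 votes (10 lower), without called doublets and without the cells over the 95th percentile of UMIs. The replicate block moved no other count of calls by over 1.5 times. Without called doublets, 23 genes were lower in SPC-II vs SPC-I, 7 lower in SPT-r vs SPC-II and 20 higher in SPT-e vs SPT-r. Without the cells over the 95th percentile 20 were lower in SPC-II vs SPC-I and 21 higher in SPT-e vs SPT-r. With a fold limit of 1, 0 were higher and 14 lower in SPC-I vs SPG-B, 7 lower in SPT-r vs SPC-II and 0 lower in SPT-e vs SPT-r, and DESeq2 also gave 0 lower there. Leaving out each replicate, the median in SPG-Ad vs SPG-Aun ran from -0.21 without replicate 2 to 0.0058 without replicate 1, and nol9 from -0.26 without replicate 1 to 0.18 without replicate 2. Leaving out a replicate gives values without a test. The cause of these shifts was not tested. The share of all genes called is given for the main fit only, and not for these alternatives. Depth limits the spermatid stages most: 36 of 56 genes had under 10 UMIs in SPT-e of replicate 1 and 24 in SPT-r.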

Other observations

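A pair of identifiers that the gene table names PES1 and bxdc2, other symbols for pes and brix1, were not counted among the 58 genes. PES1 had 155 and 140.4 CPM for SPG-Aun, 27.3 and 36.7 for SPG-B, 4.40 and 8.88 for SPT-r. Bxdc2 had 82.4 and 88.4 CPM for SPG-Aun, 25.4 and 24.7 for SPG-B, 9.70 and 15.4 for SPC-I, 42.9 and 32.6 for SPT-r. It was called higher both from SPC-I to SPC-II and from SPC-II to SPT-r (edgeR, adjusted p under 0.05).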
